A study of Mus musculus with 2 samples.

Results

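The inflammasome and NOD sensor genes examined here were Nlrp3, Nlrc4, Aim2, Nod1, Nod2, Nek7, Pycard, Casp1, Casp4 and Gsdmd, which were chosen by gene symbol and not by any measured value. Each symbol matched 1 gene, so the set was 10 of 55536 annotated genes, or 10 of 22028 protein-coding genes, with 43 annotated transcripts. All 10 were read as RNA in macrophages given lipid A, and their levels spanned from 120.2 ± 16.6 TPM (a count set against transcript length and then against the sum over the library; mean ± SD, n = 2) for Nlrp3 to 1.63 ± 0.226 TPM for Nlrc4.

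Inflammasomes are cytosolic complexes in which a sensor of infection or damage recruits the adaptor ASC (encoded by Pycard) and the protease caspase-1 (Casp1). Active caspase-1 cleaves the precursors of interleukin-1β and interleukin-18 and the pore protein gasdermin D (Gsdmd), and mouse caspase-11 (encoded by Casp4) cleaves gasdermin D after binding lipopolysaccharide in the cytosol. NOD1 and NOD2 are related cytosolic sensors of peptidoglycan fragments that signal to NF-κB through the kinase RIPK2 and need no caspase-1. In macrophages, Toll-like receptor 4 ligands such as lipid A, the membrane anchor of lipopolysaccharide, are known to prime NLRP3 by inducing its gene.

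The study sequenced total RNA, depleted of ribosomal RNA, from the cytosol of bone-marrow-derived macrophages of strain C57BL/6J after 75 min with 100 ng/ml lipid A, from 1 µg of RNA per library. There was 1 group of 2 libraries, numbered as biological replicates 1 and 2, with no untreated samples analysed here, so every value below is a level after lipid A and none is a response to it. Both carry 1 donor identifier, and the labels name no separate animals or cultures, so the spread between them may be technical. Fewer cells of a type and less RNA per cell cannot be told apart in such bulk RNA.

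Library totals were 55596607 and 50157111 expected counts in the gene tables of replicates 1 and 2. A single noncoding RNA family, 7SL, held 69.8% and 60.5% of the TPM, so TPM values of all other genes are set on what remained. All 8 macrophage markers listed were above 1 TPM, their summed level being 6000 and 6373 TPM in replicates 1 and 2. Lyz2 made up most of that sum, at 4227 and 4111 TPM, and was the only marker of the list higher in replicate 1. The others were lower in replicate 1, such as Cd14 (504.7 and 558.6 TPM), Adgre1 (98.8 and 142.8 TPM) and Itgam (12.9 and 20.5 TPM). Of other cell types' markers, none of 6 for T and B cells and none of 8 for epithelial and stromal cells reached 1 TPM. Of 8 neutrophil markers, S100a9 (17.3 ± 0.240 TPM) and S100a8 (9.74 ± 0.686 TPM) did, while Ly6g had no count in either library. The nuclear noncoding RNA Malat1 stood at 158.1 TPM in replicate 1 and 799.2 TPM in replicate 2, and Neat1 at 14.8 and 64.6 TPM, so the libraries differed in these RNAs although both are labelled cytosolic.

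Every one of the 10 genes had a mean of 1 TPM or more, a level that 39.3% of all protein-coding genes reached. Their median was 12.7 TPM, against 0.110 TPM over all protein-coding genes and 6.14 TPM over those at 1 TPM or more. Together they held 0.129% and 0.136% of all expected counts in replicates 1 and 2, and Nlrp3 made up 65.5% and 70.4% of that.

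**Figure D1:**
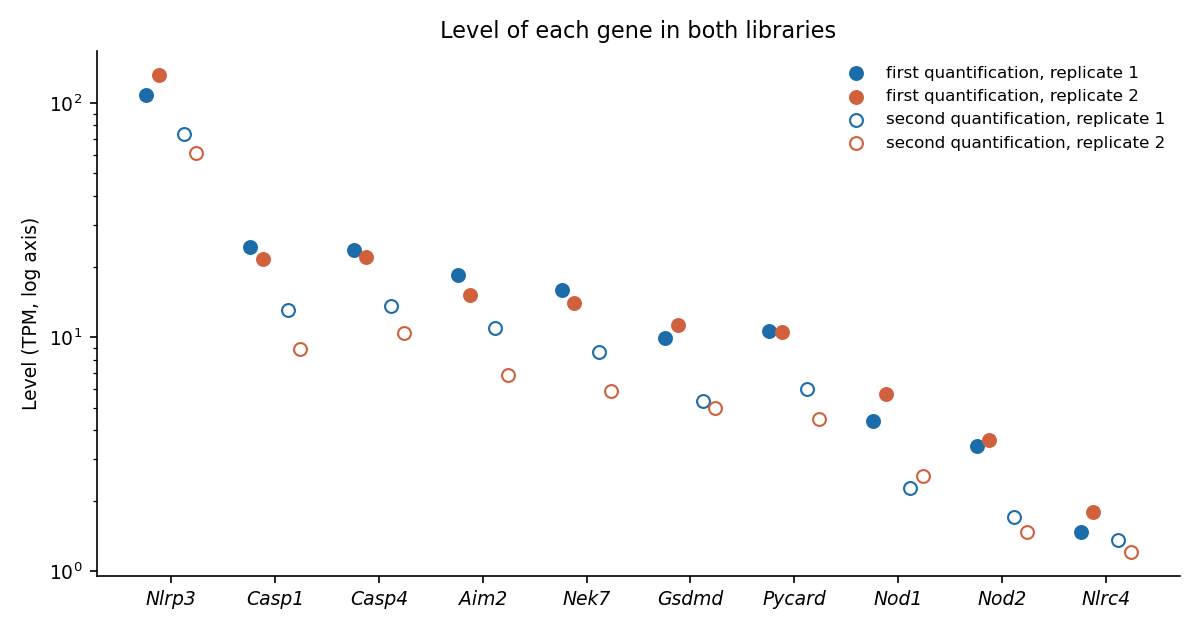
Level of each gene in TPM (log axis), ordered by its mean in the first quantification. Filled points are the deposited gene tables (first quantification) and open points the sums over the second quantification's transcripts, blue for replicate 1 and orange for replicate 2. Nlrp3, at 108.5 and 132 TPM in the first quantification, stands above the other genes in both libraries and both quantifications.

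Nlrp3 encodes the sensor that responds to potassium efflux and many other signs of cell damage, and lies at chr11:59541568-59566956 on the plus strand (mm10). It had 108.5 TPM in replicate 1 and 131.9 TPM in replicate 2, from 46877 and 47952 expected counts. It ranked 284 of the 22028 protein-coding genes, and its lower library was 4.49 times the higher library of Casp1, the next gene. Within a library of the first quantification, the Nlrp3 level was 10.3 and 12.6 times that of Pycard, which encodes its adaptor. It was 73.8 and 73.7 times that of Nlrc4. In the second quantification the ratios were 12.3 and 13.7 to Pycard, and 54.1 and 50.3 to Nlrc4. If every Pycard count came from its long transcript Pycard-201, Pycard would be at 3.79 TPM and the ratio to it higher.

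Of the 3 annotated Nlrp3 transcripts, Nlrp3-201 held 90.9 ± 0.708% of the gene's TPM and Nlrp3-202 held 9.05 ± 0.708% (first quantification, n = 2). They start at 59541568 and 59542686 on chromosome 11, in different first exons, and have the same coding sequence of 1033 codons, so they differ in their starts and not in the protein they encode. The 250 bases upstream of each start, as RefSeq places it (GRCm38.p6), are printed because the start upstream of most Nlrp3 RNA differs from the other in the NF-κB-type motif GGGNNNNNCC, searched on both strands and marked by capitals.
Nlrp3-201, chr11:59541319-59541568, plus strand: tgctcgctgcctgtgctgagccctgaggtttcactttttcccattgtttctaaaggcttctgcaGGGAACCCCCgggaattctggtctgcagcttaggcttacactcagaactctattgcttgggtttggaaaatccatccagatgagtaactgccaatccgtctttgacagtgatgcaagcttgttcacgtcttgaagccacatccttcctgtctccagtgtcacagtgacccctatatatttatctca
Nlrp3-202, chr11:59542436-59542685, plus strand: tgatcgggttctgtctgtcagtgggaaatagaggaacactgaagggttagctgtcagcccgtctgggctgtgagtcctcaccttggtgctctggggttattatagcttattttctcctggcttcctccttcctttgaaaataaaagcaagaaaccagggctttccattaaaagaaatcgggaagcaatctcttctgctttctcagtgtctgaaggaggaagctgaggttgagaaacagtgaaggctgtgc
The motif had 1 match in the window of Nlrp3-201 and 0 in that of Nlrp3-202. It was found in 45.8% of 32817 RefSeq windows of this kind, so a match is common and describes only these letters. In the second quantification Nlrp3-201 held less of the TPM, 60.0% and 69.3% in replicates 1 and 2. That quantification gave Nlrp3-203, a transcript of 676 nt whose coding sequence is incomplete in the annotation, 29.95% and 18.8%. The first quantification listed Nlrp3-203 at 0. Nlrp3-203 is annotated to start at 59542756, near the start of Nlrp3-202 and not that of Nlrp3-201. By counts it held 4.84% and 2.79% in the second quantification, since a short transcript takes a larger share of TPM than of counts.

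Aim2 encodes a sensor of cytosolic double-stranded DNA (chr1:173350879-173466040, plus strand). It had 18.4 TPM in replicate 1 and 15.2 TPM in replicate 2, the second highest of the sensors. Its TPM was divided among Aim2-204 (34.4 ± 0.351%), which encodes 354 residues, Aim2-206 (29.2 ± 0.662%), a transcript of 383 nt with no coding sequence, and Aim2-205 (28.5 ± 0.864%), which is incomplete in the annotation. In the second quantification Aim2-205 led by TPM instead, with 34.1% and 29.4% in replicates 1 and 2. By expected counts of the first, Aim2-204 held 67.0% and 68.0%, and Aim2-202, which encodes the same 354 residues, 11.4% and 10.7%. Aim2-205 held 16.04% and 15.4% of those counts, and Aim2-206 4.998% and 5.20%. These short transcripts thus carried a larger share of the TPM of Aim2 than of its counts. Read as if every count came from Aim2-204, the level would be 8.55 ± 1.16 TPM, so the deposited level is 1.96 times as high.

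Nlrc4 encodes the sensor that oligomerises with NAIP proteins bound to flagellin or type III secretion proteins (chr17:74425438-74459142, minus strand). It had the lowest level of the set, 1.47 TPM in replicate 1 and 1.79 TPM in replicate 2, from 750 and 767 expected counts. Nlrc4-201 held 92.0 ± 0.242% of this. Of the set, Nlrc4 was also the gene on which the quantifications differed most: the second counted 1535 and 1482 in replicates 1 and 2, so the first had 0.489 and 0.517 times as many. The other 9 genes had 0.842 to 0.937 times as many over both libraries, and the median protein-coding gene 0.924. Among protein-coding genes that averaged at least 10 counts, only 3.77% were past 1.5-fold between quantifications in either direction, and Nlrc4 was the only gene of the set among them, 1.21% of genes lying at or below its ratio. Of the stretches of 31 bases in its transcripts, 3.35% also occur in other genes, and whether shared sequence sets the difference was not tested.

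By deposited TPM, Nod1 and Nod2 were below Nlrp3, Nek7, Pycard and Casp1 in both libraries. On the length of each gene's full coding transcript, however, Pycard (3.79 TPM) lay between Nod1 (4.91 TPM) and Nod2 (3.44 TPM). Nod1 (chr6:54923949-54972612, minus strand) encodes the sensor of peptides holding diaminopimelic acid, and had 4.38 TPM in replicate 1 and 5.69 TPM in replicate 2. Nod2 (chr8:88647315-88688474, plus strand) encodes the sensor of muramyl dipeptide, and had 3.43 TPM in replicate 1 and 3.62 TPM in replicate 2. Nod1 was above Nod2 in each library, by 1.28 and 1.57 times. Nod2-203, of 1013 codons, held 93.9 ± 0.370% of Nod2 in the first quantification. The second gave Nod2-202 15.5% in replicate 2 and listed it at 0 in replicate 1, so this division was not repeated between libraries. Nod2-204, a retained-intron transcript, held 8.42% and 10.3% in replicates 1 and 2 of the second quantification. In the first it held 5.83% and 4.70%.

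Nod1 has transcripts with separate starts, and 1 of them carried the level. Nod1-201 held 99.3% and 95.6% of the TPM in replicates 1 and 2 in the first quantification, while Nod1-202, which encodes the same 953 residues, was listed at 0. The second quantification gave Nod1-202 0.730% and 4.37%. The upstream windows are printed to set the start in use beside the other one, with capitals as above.
Nod1-201, chr6:54972613-54972862, minus strand: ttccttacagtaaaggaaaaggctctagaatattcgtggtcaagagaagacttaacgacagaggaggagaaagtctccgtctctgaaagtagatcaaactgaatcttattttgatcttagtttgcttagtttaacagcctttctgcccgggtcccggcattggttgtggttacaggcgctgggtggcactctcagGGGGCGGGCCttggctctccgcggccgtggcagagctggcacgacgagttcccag
Nod1-202, chr6:54971662-54971911, minus strand: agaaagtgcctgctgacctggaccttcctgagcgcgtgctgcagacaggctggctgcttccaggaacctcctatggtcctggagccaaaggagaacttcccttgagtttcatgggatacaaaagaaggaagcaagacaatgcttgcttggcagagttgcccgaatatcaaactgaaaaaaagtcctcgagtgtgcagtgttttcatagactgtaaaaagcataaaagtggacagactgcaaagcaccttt
The window of Nod1-201 held 12 CpG and 1 motif match, and that of Nod1-202 held 4 CpG and 0 matches. Over the 12 RefSeq starts of the set that could be read, for 9 of the 10 genes, matches of this motif numbered 0 to 5, and TATAAA and the AP-1-type TGANTCA had none. TATAAA was found in 12.4% of all windows and TGANTCA in 6.75%.

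Nek7 encodes a kinase that binds NLRP3 and is needed for its assembly in mouse macrophages (chr1:138482875-138620141, minus strand). It had 15.8 TPM in replicate 1 and 13.9 TPM in replicate 2, so Nlrp3 RNA was 6.86 and 9.48 times as high. Its RNA was divided differently by the quantifications. Nek7-202 held 57.5 ± 7.45% of the TPM in the first quantification, Nek7-201 21.4 ± 0.980% and Nek7-203 20.8 ± 6.54%. In the second quantification Nek7-203 led instead, with 43.9 ± 3.60%. Nek7-202 and Nek7-203 encode the same 302 residues and differ in their untranslated ends, and the authors' posterior SD of the Nek7-203 count was 12.3% and 22.0% of that count in replicates 1 and 2.

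Nek7-201 lacks a pair of coding exons and encodes 201 residues, of which the first 196 are those of Nek7-202. Its share was 22.1% and 20.7% in replicates 1 and 2 in the first quantification, and 33.5% and 31.8% in the second, so each quantification repeated its own value between libraries and the quantifications differed from each other. The coding bases around the junction where the transcripts part are printed, with the bases after the junction in capitals.
Nek7-202, chr1:138502636-138515654, minus strand: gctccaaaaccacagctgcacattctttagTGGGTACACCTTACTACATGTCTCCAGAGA
Nek7-201, chr1:138487099-138515654, minus strand: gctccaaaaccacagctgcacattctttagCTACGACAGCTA
The runs are identical up to the junction and differ from the first base after it. They are joined across the intron, and the genome positions cover the whole interval.

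Pycard encodes ASC, the adaptor that joins the sensors to caspase-1 by its PYD and CARD domains (chr7:127989708-127993867, minus strand). It had 10.6 TPM in replicate 1 and 10.5 TPM in replicate 2. Which transcript led depended on the scale. Pycard-202, of 493 nt and incomplete in the annotation, held 69.3 ± 0.366% of the TPM, whereas Pycard-201, of 3800 nt with a 3′ untranslated region of 3004 nt, held 85.2% and 85.4% of the counts in replicates 1 and 2. If every count came from Pycard-201, the level would be 3.79 ± 0.0228 TPM, which the deposited level exceeds 2.78 times. Gm45205, annotated as a gene to be experimentally checked (TEC) on the opposite strand, shares 485 exonic bases with Pycard and had 7.42 and 9.55 expected counts. The strand used in counting is not given in the sources used here, so reads of that stretch cannot be assigned with certainty.

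Casp1 and Casp4 lie beside each other on chromosome 9, at chr9:5298517-5307265 and chr9:5308828-5336783 on the plus strand, 1562 bases apart, and had near-equal levels. Casp1 had 24.2 TPM in replicate 1 and 21.6 TPM in replicate 2. Casp4 had 23.6 TPM in replicate 1 and 21.9 TPM in replicate 2. Casp1 was 1.03 times Casp4 in replicate 1 and 0.985 times in replicate 2, so their order was not the same in both libraries. Casp1 has 1 annotated transcript, of 402 codons, and shares no stretch of 31 bases with another gene.

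The codons of the active-site pentapeptide, which holds the catalytic cysteine, are printed with the coding bases around them to show how far these paralogs differ where they are most alike in function. Capitals mark the pentapeptide's codons.
Casp1-201, chr9:5303735-5304209, plus strand: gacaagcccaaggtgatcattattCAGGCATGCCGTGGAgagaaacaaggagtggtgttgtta
Casp4-201, chr9:5324919-5327198, plus strand: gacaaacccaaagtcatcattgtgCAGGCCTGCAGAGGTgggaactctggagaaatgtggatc
Both runs are joined across an intron. Of 63 bases, 43 were identical and 20 differed, and 4 of the 15 capital bases differed. Over their whole transcripts, the longest run identical between Casp1-201 and Casp4-201 was 12 bases. Among the leading coding transcripts of the 10 genes the longest such run was 22 bases, shared by Nlrp3 and Nod2.

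Casp4 had the most noncoding RNA among the caspases and gasdermin D. Casp4-201, of 373 codons, held 77.4 ± 1.78% of the TPM. Retained-intron transcripts held 8.45% in replicate 1 and 15.6% in replicate 2, and transcripts annotated for nonsense-mediated decay held 8.15% and 8.26%. Casp4-205, a retained-intron transcript of 365 nt, held 12.6% in replicate 2 of the second quantification and 4.15% in its replicate 1. In the first quantification it held 1.23% and 2.51% in replicates 1 and 2, from 5 and 8 counts. By counts it held 0.622% and 1.97% in replicates 1 and 2 of the second.

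Gsdmd encodes gasdermin D, whose N-terminal part forms the pore (chr15:75862327-75867408, plus strand). It had 9.90 TPM in replicate 1 and 11.2 TPM in replicate 2. Gsdmd-201, of 487 codons, held 87.0 ± 4.08% of the TPM, and retained-intron transcripts 3.23% in replicate 1 and 9.27% in replicate 2. Gsdmd-205, a retained-intron transcript of 406 nt, held 13.8% in replicate 2 of the second quantification and 8.79% in its replicate 1. In the first quantification it held 1.41% and 3.21% in replicates 1 and 2, from 2.94 and 6.59 counts. By counts it held 1.21% and 2.22% in replicates 1 and 2 of the second.

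**Figure D2:**
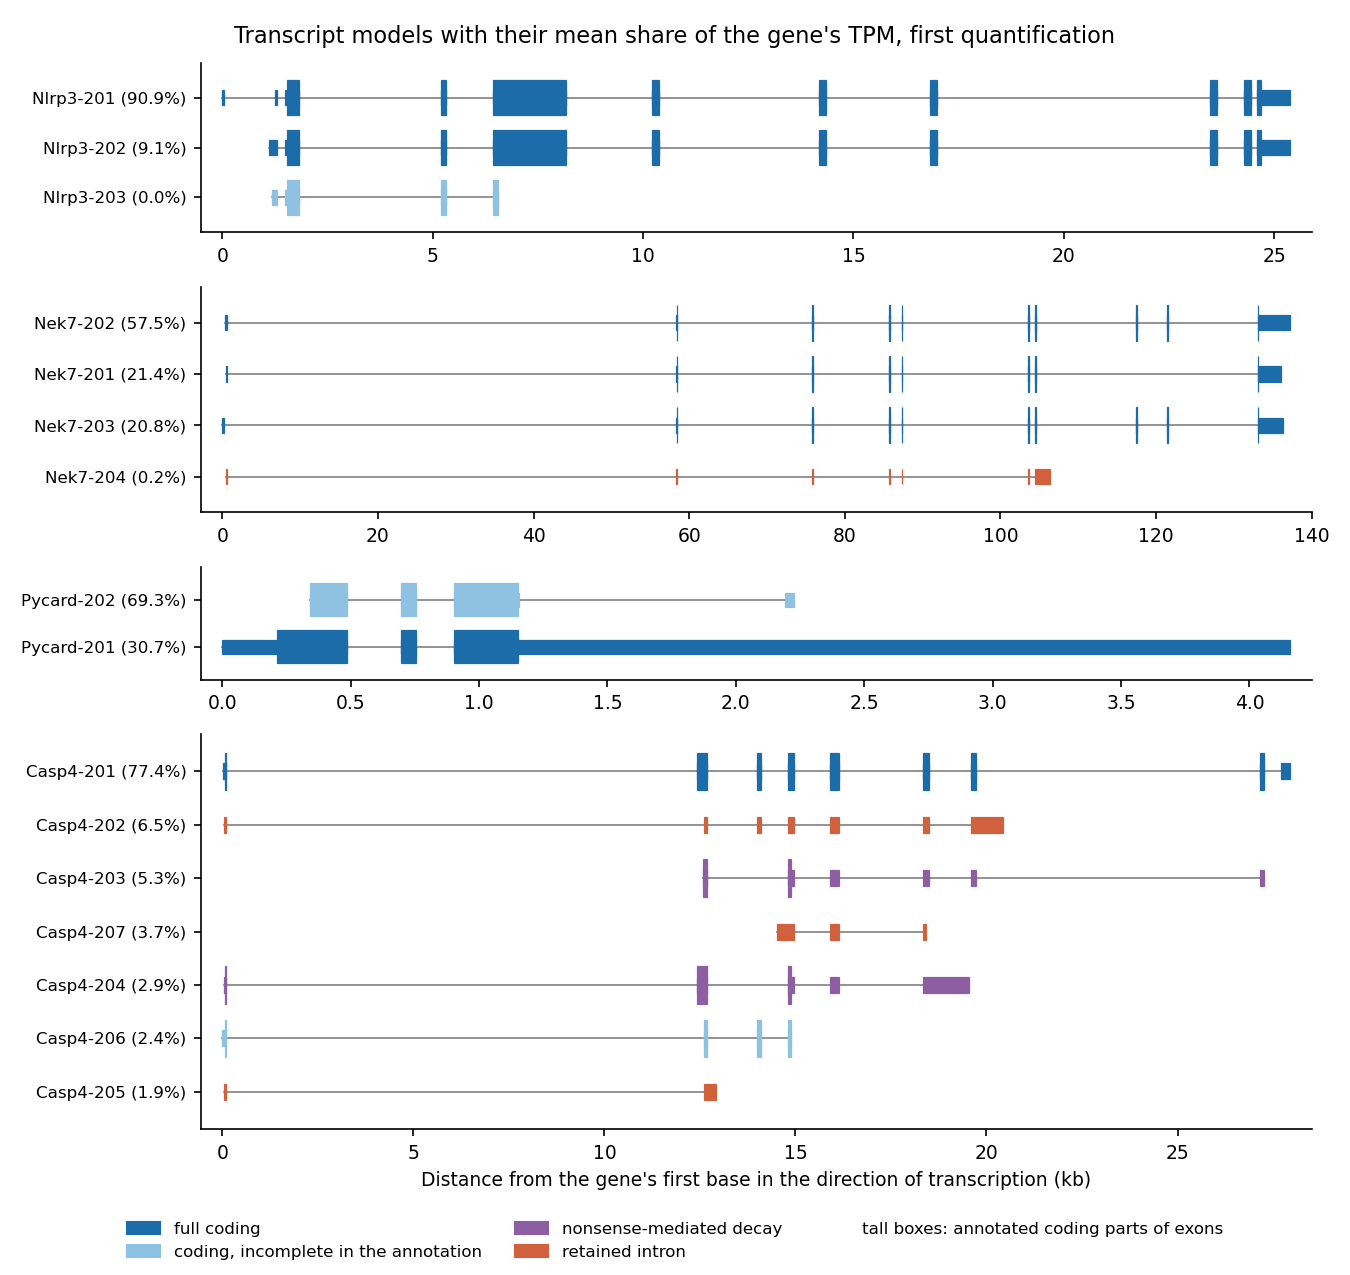
Annotated transcripts of Nlrp3, Nek7, Pycard and Casp4, drawn by distance in kb from the gene's first base in the direction of transcription, with tall boxes for coding parts of exons, low boxes for other exon parts and colours for the annotated class. The percentages are mean shares of the gene's TPM in the first quantification (n = 2), such as 57.5% for Nek7-202. Nek7-201 lacks 2 boxes that Nek7-202 has, and the boxes of Pycard-202 cover much less than those of Pycard-201.

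Retained-intron transcripts are annotated for Nod2, Nek7, Casp4 and Gsdmd. By counts, their share was 7.23% in replicate 1 and 12.3% in replicate 2 for Casp4, 0.843% and 2.83% for Gsdmd, and 0.0862% and 0.157% for Nek7. The Nek7 shares rest on 7.07 and 9.78 counts in replicates 1 and 2, so the direction for Nek7 is uncertain. Those of Gsdmd rest on 14.15 and 43.2 counts. For Nod2 the share was 3.17% in replicate 1 and 2.51% in replicate 2, from 54.56 and 38.55 counts. In the first quantification the share was thus lower in replicate 1 for 3 of the 4 genes. The same held for 79.7% of the protein-coding genes that have such transcripts counted and average at least 100 counts. In the second quantification the direction for Nod2 turned, with 4.69% in replicate 1 and 5.82% in replicate 2. Nek7, Casp4 and Gsdmd were lower in replicate 1 there too. The median share over those protein-coding genes was 0.571% in replicate 1 and 1.40% in replicate 2 of the first quantification. Malat1 and Neat1 were also lower in replicate 1, by the values given above, and their part in the shares was not tested.

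Of the 9 genes with more than 1 transcript, all 9 had the same leading transcript by TPM in both libraries of the first quantification, as did 90.4% of protein-coding genes that have 2 or more transcripts and average at least 10 counts. Between quantifications 7 of 9 led with the same transcript in each replicate, against 88.6% of those genes in replicate 1 and 86.9% in replicate 2. Aim2 and Nek7 were the exceptions. Between TPM and counts 8 of 9 had the same leading transcript, with Pycard the exception, against 91.7% of genes in replicate 1 and 91.3% in replicate 2. Each of these counts is within 1 gene of what the share over all genes gives for 9 genes.

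**Figure D3:**
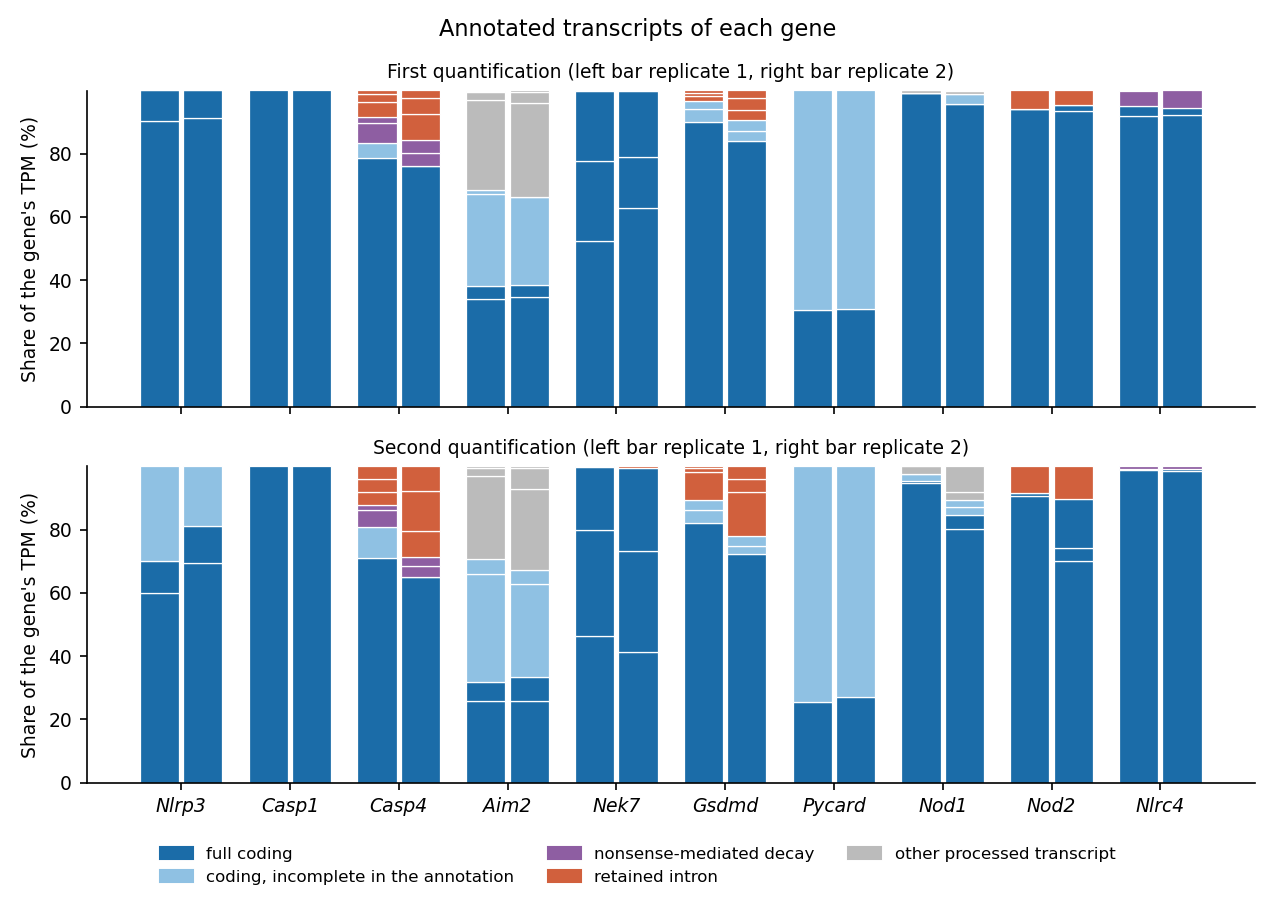
Share of each gene's TPM (percent) held by its annotated transcripts, 1 segment per transcript coloured by class, with replicate 1 on the left and replicate 2 on the right of each pair, first quantification above and second below. Casp1 has 1 transcript at 100%, and the full coding transcripts of Pycard hold 30.4% and 30.95% in the first quantification.

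By mean TPM the order was Nlrp3, Casp1, Casp4, Aim2, Nek7, Gsdmd, Pycard, Nod1, Nod2 and Nlrc4. The values of neighbours overlapped between libraries for Casp1 and Casp4, for Aim2 and Nek7, and for Gsdmd and Pycard, and those of the other 6 neighbouring pairs did not. Compared within a library, Aim2 was above Nek7 in both libraries of both quantifications, as was the higher gene of those 6 pairs. Gsdmd was below Pycard in replicate 1 and above it in replicate 2, and Casp1 was above Casp4 only in replicate 1 of the first quantification. Giving each gene the length of its full coding transcript of highest count put Pycard (3.79 TPM) between Nod1 (4.91 TPM) and Nod2 (3.44 TPM). It brought Aim2 to 9.36 TPM in replicate 1 and 7.73 TPM in replicate 2, overlapping Gsdmd at 9.20 TPM in replicate 1 and 9.93 TPM in replicate 2. The places of Pycard and Aim2 therefore depend on how short transcripts are counted, and those of Nlrp3, Casp1, Casp4 and Nlrc4 were the same on both lengths.

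Between the libraries, none of the 10 genes was past 1.5-fold after TMM scaling. Of 13392 genes averaging at least 10 counts, 14.0% were. For as few as 10 genes, none is near what that share gives, so it is not read as a trait of the set. The shares are also unlike in depth, since Nlrc4, the lowest of the set by counts, had 750 and 767. Ratios of replicate 1 to replicate 2 ran from 0.827 for Nod1 to 1.26 for Aim2, with 5 genes above 1 and 5 below. For Nlrp3 the ratio was 0.854 (95% Clopper-Pearson interval 0.843 to 0.865) and for Nlrc4 0.854 (0.771 to 0.946). For Aim2 it was 1.26 (1.18 to 1.35), for Casp1 1.16 (1.10 to 1.22) and for Nek7 1.15 (1.12 to 1.19). The intervals of 7 genes left out 1, and those of Nod2, Pycard and Gsdmd did not. They cover counting error only. For Nlrp3, TMM-scaled counts of the second quantification kept the direction, with a log2 ratio of -0.14 against -0.23 in the first. TPM of the second quantification, 73.7 in replicate 1 and 60.9 in replicate 2 for Nlrp3, was higher in replicate 1 for every gene of the set but Nod1, so TPM of that quantification is not read as a difference between libraries. With a single group of 2 libraries there is no test of these differences.

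**Figure D4:**
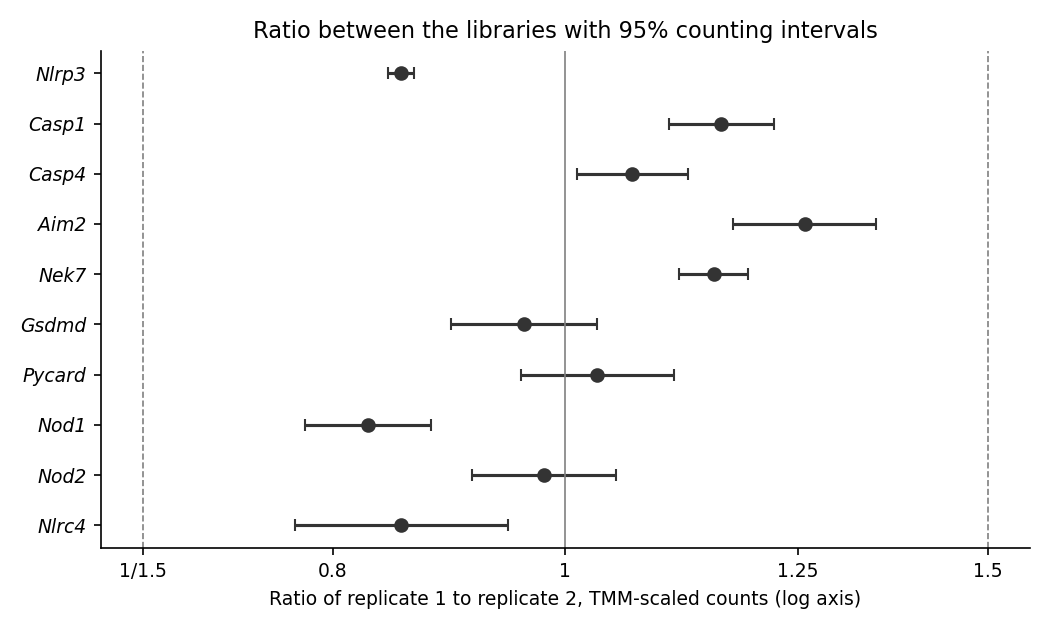
Ratio of replicate 1 to replicate 2 in TMM-scaled expected counts (log axis) for each gene, with bars for the 95% Clopper-Pearson counting interval. The solid line marks 1 and the dashed lines 1.5-fold in either direction. All 10 points lie between the dashed lines.

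Genes of the same pathways were read from lists, of which 55 of 68 genes had a mean of 1 TPM or more. Of all protein-coding genes, 39.3% reached that level, the share to set beside each list count below. Of 12 other inflammasome sensors, 6 reached it, which is near that share. Ifi204, a DNA-binding protein of the Aim2 family, was highest at 83.6 ± 4.93 TPM. Naip2 (6.33 ± 1.18 TPM), whose product binds the inner rod protein of bacterial secretion systems and engages NLRC4, was above Nlrc4 itself in both quantifications, with 2.80 TPM against 1.29 TPM in the second. Naip5, whose product binds flagellin, was above Nlrc4 in the first quantification (2.61 ± 0.311 TPM) and below it in the second (1.15 TPM). Mefv, which encodes pyrin, had 3.52 ± 0.742 TPM. At the low end of the first quantification, Nlrp12 had 1 and 2 counts in replicates 1 and 2, Nlrp6 had 2 and 0, and Nlrp9b had 0 in both. The second gave Nlrp12 8.60 and 15.3 counts, Nlrp6 3.01 and 5.01, and Nlrp9b 1 and 0. The Naip genes are close paralogs, so the division of reads among them is uncertain.

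Of 10 output genes, 8 reached 1 TPM. Il1b and Il1a, which encode the interleukin-1 precursors, were far above the sensors at 913.2 ± 15.4 and 637.2 ± 45.2 TPM. Il1rn, the receptor antagonist, had 116.3 ± 9.59 TPM and Ninj1, whose product ruptures the membrane after pore formation, 107.2 ± 7.70 TPM. Il18, the other caspase-1 substrate, was read at 9.22 ± 0.0141 TPM and so stood near Gsdmd and Pycard. Gsdme was at 1.17 ± 0.134 TPM. Gsdmc had no count in either quantification, and Gsdma had none in the first and 4 and 6 counts in replicates 1 and 2 of the second. Gsdmd was the highest of the 4 gasdermin genes read.

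Of 14 NLRP3 regulators, 13 reached 1 TPM. The guanylate-binding proteins Gbp5 and Gbp2 had 39.7 ± 11.2 and 23.6 ± 5.28 TPM, and Trim30a 28.4 ± 3.11 TPM. Nlrc3 (1.61 ± 0.148 TPM) and Fbxl2 (1.48 ± 0.0495 TPM) were low, and Trim31 had no count. Of 21 genes of NOD signalling, 18 reached 1 TPM. Tnfaip3, which encodes the ubiquitin-editing inhibitor A20, was highest at 339.3 ± 8.84 TPM, and Slc15a3, an endolysosomal peptide transporter, had 124.1 ± 27.0 TPM. Erbin (46.6 ± 3.32 TPM) and Birc3 (28.4 ± 0.926 TPM) followed. Ripk2, the kinase both NOD proteins signal through, had 16.1 ± 2.10 TPM and was above Nod1 and Nod2 in both libraries. Tab1 (0.705 ± 0.0495 TPM), Slc15a2 (0.100 TPM in each library) and Slc46a2 (no count) were below 1 TPM. The equal TPM of Slc15a2 came from unequal counts, 8 in replicate 1 and 24 in replicate 2.

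Of 11 other death caspases and necroptosis genes, 10 reached 1 TPM, with Zbp1 (18.8 ± 4.29 TPM) and Casp8 (16.2 ± 0.219 TPM) highest by mean, followed by Ripk1 (11.1 ± 0.368 TPM). Zbp1 had 21.8 TPM in replicate 1 and 15.8 TPM in replicate 2, and Casp8 16.4 and 16.1 TPM, so their order turned between libraries. Casp12 had 0.0950 ± 0.0212 TPM, and Fadd 2.24 ± 0.00707 TPM. Casp1 and Casp4 were each above all 11 of these in both libraries of the first quantification. A gene with 0 counts in a library could still be present at up to 3 counts of the same quantification, by counting error alone.

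**Figure D5:**
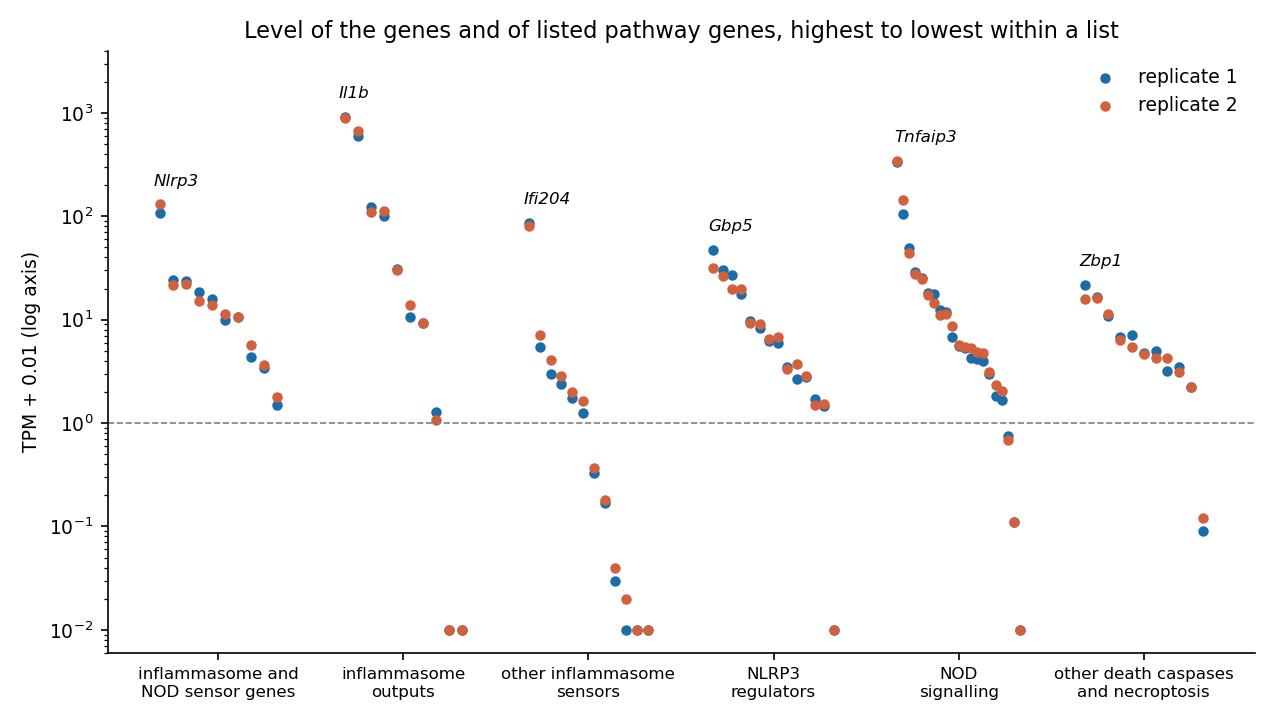
Level of the 10 genes and of the listed pathway genes as TPM + 0.01 (log axis), blue for replicate 1 and orange for replicate 2, highest to lowest within each list and with the top gene named. The dashed line marks 1 TPM. Il1b (913.2 TPM) and Tnfaip3 (339.3 TPM) lie above Nlrp3, and genes at 0 TPM lie on the lowest row.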

How the data were processed

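Per the deposited readme files, mm10 and annotation M21 underlie every table. Gene and transcript tables of the first quantification were made from alignments to the transcriptome, and the second quantification, of transcripts only, was made from the read files and an index. For the aligner, quantifier, versions and strand setting, the sources used here give nothing. Expected counts are the authors' estimated fragments per gene or transcript, and TPM values were deposited by the authors per effective length. The posterior SD of a count is the authors' deposited score of how uncertainly reads were divided.

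From these, gene symbols were matched to GENCODE M21 by identifier, and the second quantification's transcripts were summed per gene. Entries without a gene identifier held 0.251% and 0.204% of the counts of replicates 1 and 2. Ratios between libraries used expected counts scaled by TMM (edgeR 4.0.16, R 4.3.3), with 0.5 added and a mean count of 10 or more required. Counts were rounded to whole numbers only to compute the scale factors and the counting intervals. DESeq2 1.42.0 size factors were an alternative. Shares and intervals were computed in Python 3.11.15 with scipy 1.17.1. The ratio step was tested on simulated data with known folds. Promoter sequences are RefSeq's, on GRCm38.p6, matched by symbol for 9 of the 10 genes, and transcript sequences are GENCODE M21's.

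The text names every gene of the set, each of their transcripts at 10% or more of the gene's TPM in a library or quantification, and of each other list up to 4 genes of highest and 3 of lowest level, with all genes below 1 TPM where 5 or fewer were. Aim2-202, Nod1-202, Il18 and Ripk2 were named outside this rule, after their values were seen. Some genes that the rule names are not reported here. The genes and lists were chosen with earlier results of these data known.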

Additional observations from a re-analysis of the deposited data

How the results depend on the processing

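All 10 genes had a mean of 1 TPM or more in the second quantification, on TPM rescaled over nuclear-encoded protein-coding genes, on the length of the full coding transcript, at 0.5 TPM and without either replicate, and 8 reached 5 TPM. The median level of the genes, 12.7 TPM, moved to 6.24 TPM in the second quantification, 58.5 TPM on the rescaled TPM and 9.06 TPM on the length of the full coding transcript, an alternative chosen after seeing the data, and ran from 12.6 to 13.2 TPM without 1 replicate. The second quantification gave 7SL 29.0% and 18.1% of the TPM in replicates 1 and 2, and the median protein-coding gene was 2.18 times as high in the first; the cause was not tested. Listed pathway genes above 1 TPM numbered 48 to 57 over the alternatives, against 55. No gene of the set passed 1.5-fold between libraries under any of the 7 alternatives, where 6.94% to 24.1% of all tested genes passed the fold used. The same 9 genes kept 1 leading transcript between libraries in the second quantification and by counts. Nlrc4 remained past 1.5-fold between quantifications on centred ratios and without either replicate, alternatives also added after seeing the data. No paired analysis was possible because there is only 1 group.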
